A study of Mus musculus with 8 samples.

Results

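Expression of 10 genes of Wnt signalling was followed across 4 groups of sorted CD45+/Sca1+ mouse cells: the Frizzled receptors Fzd1, Fzd2, Fzd4, Fzd5 and Fzd7, the secreted antagonists Sfrp1, Sfrp2 and Dkk3, and the intracellular effectors Lef1 and Axin2. They were taken by name, as every probe set whose annotation gives one of these symbols and no other gene, which found all 10 genes with 19 probe sets (short groups of array probes against one transcript), out of 12393 named genes on the array. The receptors hold 9 of these probe sets, the antagonists 7 and the effectors 3. CD45 marks cells of the blood lineage, and Sca1 is found on mouse blood stem cells, on other progenitors and on part of the mature leukocytes and vessel cells. RNA was measured on 8 Affymetrix Mouse430A arrays, 2 per group, from C57BL/6 mice aged 6 to 8 weeks. The groups were cardiotoxin-injured muscle of mice with a bone marrow transplant (cardiotoxin, from snake venom, kills muscle fibres), cardiotoxin-injured muscle of mice without a transplant, uninjured muscle, and bone marrow. They are called transplanted injured muscle, untransplanted injured muscle, uninjured muscle and bone marrow. The sources used here do not give the time after injury, nor the donor or host origin of the cells in transplanted mice. The labels name no separate animals for the 2 arrays of a group, so a p-value here reflects the spread between arrays only, and that spread may be technical.

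Wnt proteins are secreted signals that bind Frizzled receptors at the cell surface. In the best known branch, binding stops a cytoplasmic complex built on Axin proteins from destroying beta-catenin, which then enters the nucleus and joins DNA-binding factors such as Lef1 to switch on target genes. Axin2 is itself such a target and feeds back as an inhibitor, while secreted Frizzled-related proteins (Sfrp1, Sfrp2) bind Wnts outside the cell. In muscle the pathway is known for its roles in satellite cells, the muscle stem cells, and in the fibroblasts that lay down matrix during repair.

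Promoter windows are shown for the members that stand for the patterns described below and have a window in the RefSeq promoter table (build GRCm38.p6): Axin2, low on every injured array, Sfrp2, whose group means span the widest range, and Fzd7, low in bone marrow. Each window runs from 250 bases before to 50 bases after an annotated transcript start, reads 5′ to 3′ on the gene's strand, and has the first transcribed base in capitals. Capitals also mark the letters CTTTGA or CTTTGT, the core that Lef1 and its relatives recognise, on either strand; on the opposite strand they read TCAAAG and ACAAAG.
Fzd7 (chr1:59481897-59482196, plus strand): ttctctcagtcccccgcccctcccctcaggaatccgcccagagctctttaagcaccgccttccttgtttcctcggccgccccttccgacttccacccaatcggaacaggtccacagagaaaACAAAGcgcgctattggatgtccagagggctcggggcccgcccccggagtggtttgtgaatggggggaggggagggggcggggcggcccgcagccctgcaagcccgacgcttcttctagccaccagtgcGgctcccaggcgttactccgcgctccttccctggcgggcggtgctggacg
Sfrp2 (chr3:83766071-83766370, plus strand): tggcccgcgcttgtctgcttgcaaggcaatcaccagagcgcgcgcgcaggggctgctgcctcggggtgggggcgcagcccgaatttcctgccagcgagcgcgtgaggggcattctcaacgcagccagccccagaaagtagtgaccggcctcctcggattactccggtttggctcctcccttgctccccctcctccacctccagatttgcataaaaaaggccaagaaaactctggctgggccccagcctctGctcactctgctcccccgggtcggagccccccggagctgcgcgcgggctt
Axin2 (chr11:108920099-108920398, plus strand): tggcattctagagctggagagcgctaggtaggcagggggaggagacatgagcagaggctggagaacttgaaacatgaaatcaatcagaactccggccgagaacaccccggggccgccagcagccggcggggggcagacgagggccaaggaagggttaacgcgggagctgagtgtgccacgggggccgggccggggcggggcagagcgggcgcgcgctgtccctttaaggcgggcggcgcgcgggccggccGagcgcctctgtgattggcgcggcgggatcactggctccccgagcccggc
The Fzd7 window held 1 match, CTTTGT on the minus strand, whose first base lies 129 bases before the start. The windows of Sfrp2 and Axin2 held 0 matches, which says only that these letters are not in these 300 bases. Guanine and cytosine made up 66.7% of the Fzd7 window, 66% of the Sfrp2 window and 70% of the Axin2 window, against a median of 52.7% over all windows. Of the 10 genes, 7 had a window, and with 4 for Lef1 there were 10 windows. A match was present in 3 of these 10 (30%), against 31.2% of all 32851 windows in the table.

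On the level of whole arrays, the deposited intensities had medians between 56.3 and 75.8, and Ptprc, which encodes CD45, lay between 4924 and 6996 on all 8 arrays. RNA controls separated the groups: the ratio of 3′ to 5′ signal of the Gapdh control, which grows as RNA is shortened, lay between 0.808 and 0.882 on the 4 injured arrays and between 10.7 and 46.9 on the 4 arrays without injury. The 2 uninjured muscle arrays were the least alike of any pair of replicates, with a correlation of 0.837 against 0.929 to 0.957 in the other groups. Summed intensities of 22 fibroblast genes, collagens and matrix proteins for the most part, were 8880 and 10205 in transplanted injured muscle, 39068 and 39702 in untransplanted injured muscle, 16960 and 52511 in uninjured muscle, and 1438 and 1932 in bone marrow (in each pair the lower array first). Of these sums the gene Gsn made up 2392 and 3795 in transplanted and 1340 and 1917 in untransplanted injured muscle. It made up 4284 and 8035 in uninjured muscle, and 681 and 1333 in bone marrow. Between the injured groups Gsn thus ran against the sum. None of the 22 was listed at 0, and in bone marrow 14 of them were under an intensity of 38.4 on both arrays. That value, the 40th percentile of all intensities, was the filter for testing and is not a detection limit. The level of Sca1 itself was not examined here. In such bulk RNA, fewer cells of a type and less RNA per cell cannot be told apart.

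Most of these Wnt probe sets lay under the array median in these cells, and bone marrow had the fewest above it. Of the 19 probe sets, 2 and 2 lay above their own array's median in transplanted injured muscle, 7 and 4 in untransplanted injured muscle, 6 and 4 in uninjured muscle, and 1 and 1 in bone marrow. No probe set was above the median on all 8 arrays, and 7 were above it on 0. At or above 38.4 were 5 and 4 probe sets in transplanted injured muscle, 8 and 10 in untransplanted injured muscle, 7 and 8 in uninjured muscle, and 2 and 2 in bone marrow, out of 19 on each array, while between 57% and 65.2% of all probe sets reached that value on an array. Sfrp2 in untransplanted injured muscle lay at 8.06 and 9.32 times the median, where it exceeded 84.7% and 87.4% of all probe sets. In bone marrow Axin2 alone exceeded the median, at 2.16 and 2.30 times.

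**Figure D1:**
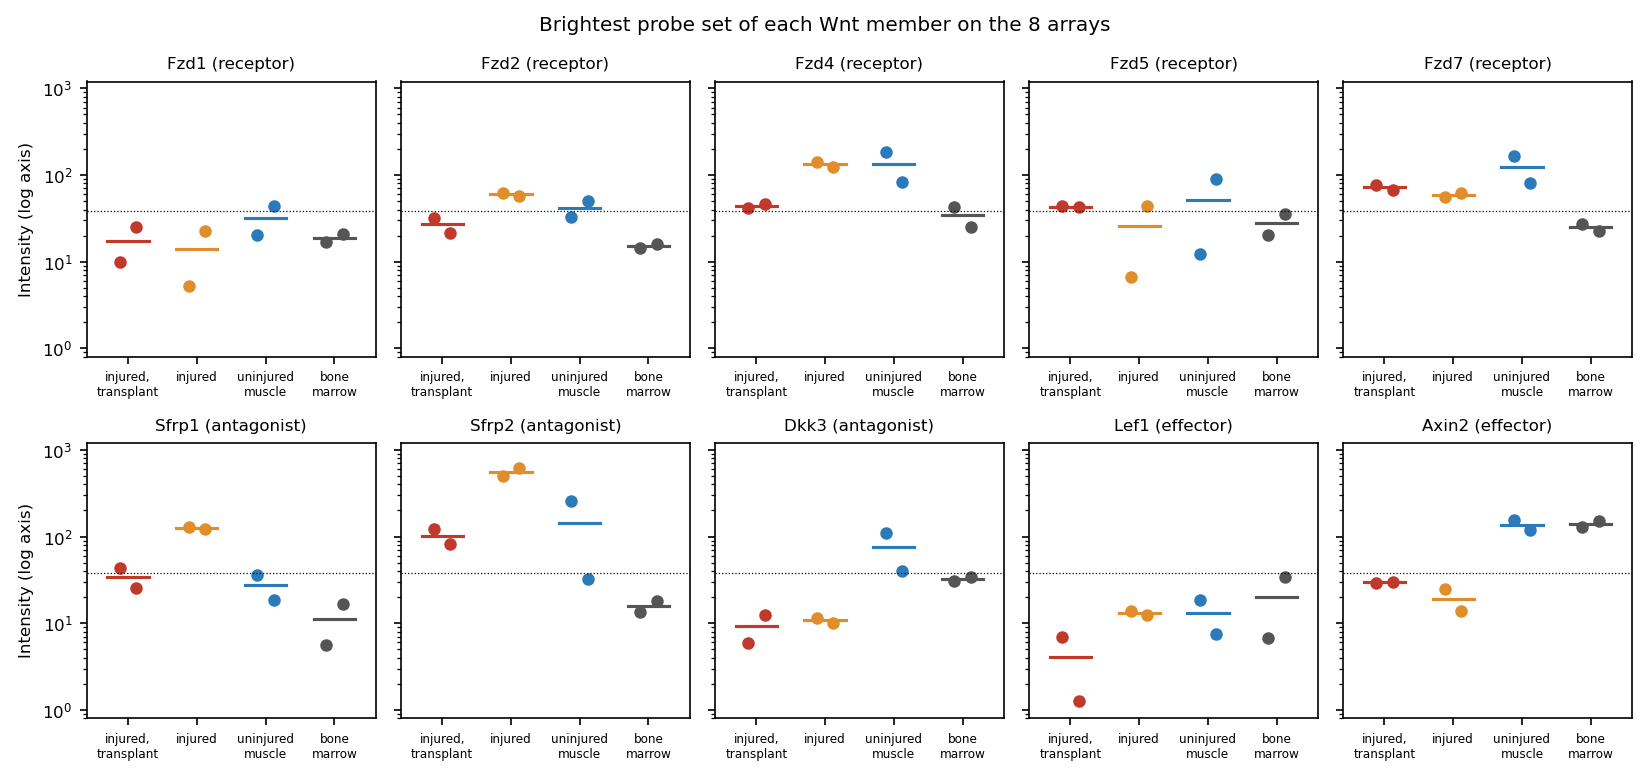
Intensity (log axis) of the probe set with the highest mean for each of the 10 genes; each point is 1 array, each bar the mean of the 2 arrays of a group, and the dotted line is 38.4, the filter value. Sfrp1 and Sfrp2 are highest in untransplanted injured muscle, Axin2 is at 120.1 or more on the 4 arrays without injury and at 30.1 or less on the 4 injured ones, and Fzd1 and Lef1 lie near or under the line throughout.

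Differences between groups were tested in limma over every probe set that reached 38.4 on 2 or more of the 8 arrays, which kept 11 member probe sets of 8 genes. Of all probe sets 72% were kept. The other 8 member probe sets, among them the only ones of Fzd1 and Lef1, were not tested. A probe set that entered through a single bright group had to differ between groups. Dkk3 entered through the 2 uninjured muscle arrays and Sfrp1 1416594_at through the 2 untransplanted injured arrays. Sfrp1 1448395_at entered through the 2 untransplanted injured arrays and transplanted injured array 1. Axin2 entered through the 4 arrays without injury, and Fzd7 through the 6 muscle arrays. The shares called among the tested members therefore carry no weight of their own. In a fit that leaves out 1 array, the array left alone in its group is assumed to vary like the other groups. Such a fit also kept the choice of probe sets made on all 8 arrays, so it does not remove the effect of the filter.

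Uninjured muscle was set against bone marrow to ask how cells of the same surface type differ by tissue. The receptor Fzd7 was higher in uninjured muscle, and no tested member passed the test as lower. This was 1 of 11 tested member probe sets, where 6.08% of all tested probe sets were called (limma, adjusted p at or under 0.05), 4.83% higher and 1.25% lower. In limma 4 of the 11 had an unadjusted p under 0.05. So did 2068 of the 9506 named genes tested, each by its probe set with the highest mean. Over all 19 probe sets, the 2 arrays of each group did not overlap for 8 that were higher in uninjured muscle and 1 that was lower, against 24.9% and 17.6% of all probe sets. Markers of other cell types moved with this comparison: summed intensities of 16 endothelial genes were 13879 and 19169 in uninjured muscle against 1243 and 1566 in bone marrow, those of 12 pericyte and smooth muscle genes 8362 and 8481 against 488 and 667, and those of 14 muscle fibre genes 4544 and 7189 against 544 and 553 (in each pair the lower array first). In bone marrow 4 of the endothelial, 6 of the pericyte and 10 of the muscle fibre genes were under 38.4 on both arrays. Not every gene followed its sum. The endothelial gene Pecam1 was at 32.5 and 61.2 in uninjured muscle against 70.7 and 59.0 in bone marrow. Egfl7 and Eng of the endothelial, Des of the pericyte and Atp2a1 of the fibre genes also overlapped between the groups. Of the endothelial sums in uninjured muscle, the gene Fabp4 made up 4101 and 6521. Their part in the Fzd7 call and in the Fzd4 difference was not tested.

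Cardiotoxin injury was examined by untransplanted injured muscle against uninjured muscle. The antagonist Sfrp1 rose after injury on 2 probe sets, and the effector Axin2 and the antagonist Dkk3 fell, on 1 each. All 4 sets entered through groups where they are high, so a fit with no filter, which tested every probe set, is given too. The adjusted p there was 0.00725 for Sfrp1 1416594_at, 0.0375 for Sfrp1 1448395_at, 0.00706 for Axin2 and 0.0312 for Dkk3. The 2 groups lie apart in the RNA controls. Injury and whatever moved these controls, RNA quality or handling, cannot be told apart for any call of this comparison, the rise of Sfrp1 included. These calls were 4 of 11 tested, where 26% of all tested probe sets were called, 12.1% higher and 13.9% lower. An unadjusted p under 0.05 in limma was found for 5 of the 11, and for 3689 of the 9506 named genes tested. The arrays did not overlap for 7 probe sets that were higher and 3 that were lower after injury, against 25.5% and 35.3% of all probe sets.

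Transplantation was examined within injured muscle, transplanted against untransplanted. Sfrp1, Sfrp2, Fzd4 and Fzd2 lay lower in transplanted injured muscle without passing the test on all 8 arrays. In limma 0 of 11 passed the adjusted threshold, where 0.252% of all tested probe sets were called, 0.0246% higher and 0.227% lower. Of the 11, 6 had an unadjusted p under 0.05, as had 928 of the 9506 named genes tested. The arrays did not overlap for 11 of 19 probe sets that were lower in transplanted injured muscle and 2 that were higher, against 23.4% and 22.1% of all probe sets. These 11 belong to 5 genes, Fzd2 (3 probe sets), Fzd4 (2), Sfrp1 (4), Sfrp2 and Lef1, and probe sets of 1 gene share its transcripts. When only the 4 injured arrays were fitted, 4 member probe sets passed, all lower in transplanted injured muscle, among 1125 of all probe sets against 41 in the fit on all 8 arrays.

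In transplanted injured muscle against bone marrow, Fzd7 was higher, Axin2 was lower, and Fzd2 was lower on 1 of its probe sets. The RNA controls separate these 2 groups as well, and tissue, injury and whatever moved the controls cannot be told apart. These were 3 of 11 tested, where 32.5% of all tested probe sets were called, 15.1% higher and 17.4% lower. The arrays did not overlap for 8 probe sets that were higher and 4 that were lower, against 28.6% and 36.3% of all probe sets.

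**Figure D2:**
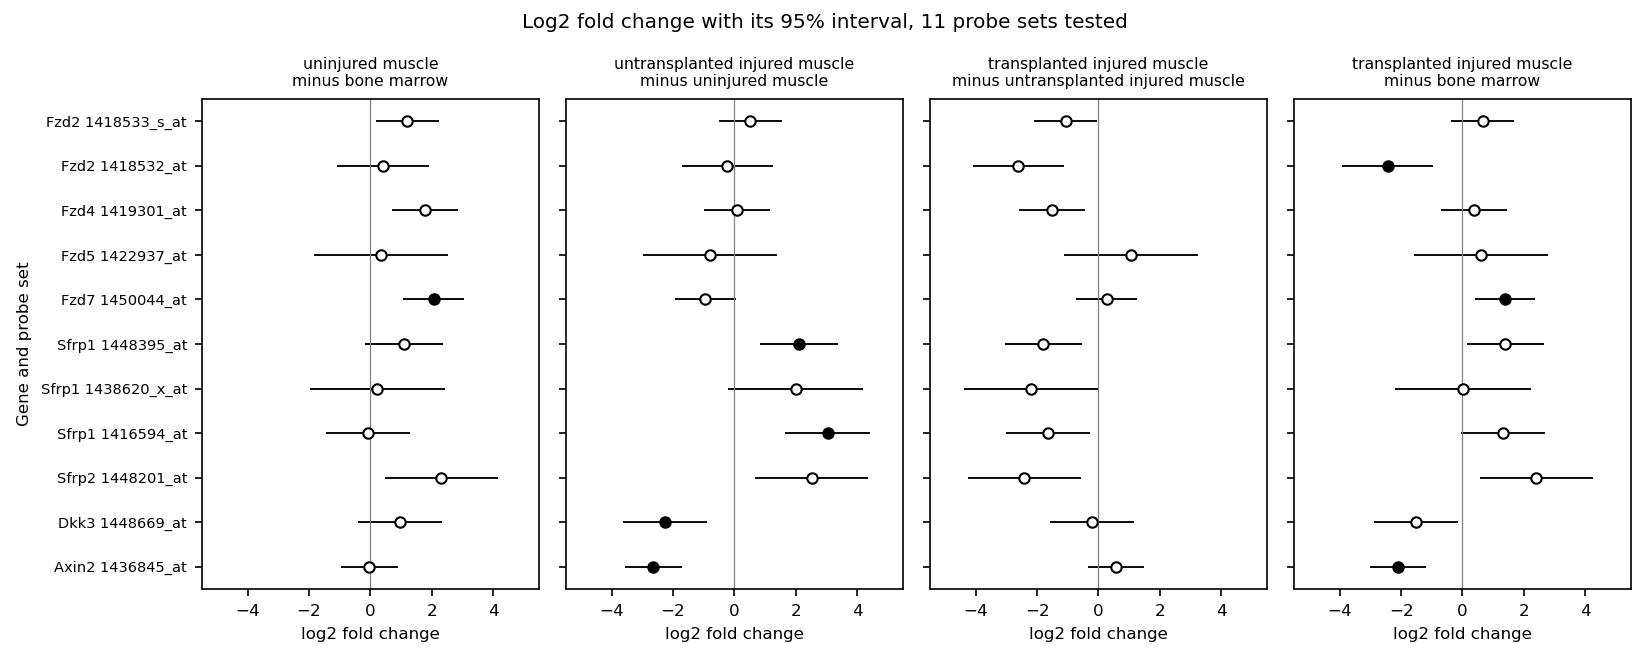
Log2 fold change with its 95% interval for the 11 tested member probe sets in the 4 comparisons, named group minus the group under it; filled points have an adjusted p at or under 0.05. Fzd7 lies right of 0 in both comparisons with bone marrow, Axin2 lies left of 0 in the comparisons of injured muscle with uninjured muscle and with bone marrow, and no point is filled for transplanted against untransplanted injured muscle.

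Among the receptors, Fzd7, which in mouse satellite cells serves as a receptor for Wnt7a, was higher on every muscle array than on either bone marrow array by its brighter probe set. This set (1450044_at) measured 77.0 and 67.0 in transplanted injured muscle, 56.1 and 61.7 in untransplanted injured muscle, 168 and 81.4 in uninjured muscle, and 27.4 and 22.9 in bone marrow. The untransplanted injured arrays were the lowest of the muscle arrays. The log2 fold change was 2.06 (SE 0.43, adjusted p = 0.0292) for uninjured muscle over bone marrow, at least 2.86-fold, and 1.38 (SE 0.43, adjusted p = 0.0403) for transplanted injured muscle over bone marrow, at least 1.79-fold. "At least" is used where both arrays of the dimmer group were under 38.4 and the fold was taken against that value. Untransplanted injured muscle differed from uninjured muscle by -0.95 on the log2 scale (SE 0.43, adjusted p = 0.136), and the value hung on which uninjured muscle array was kept, at -1.45 (adjusted p = 0.0322) with array 1 alone and -0.44 (adjusted p = 0.491) with array 2 alone. Transplanted and untransplanted injured muscle differed by 0.27 (adjusted p = 0.999). The call against bone marrow in uninjured muscle was sensitive to processing, with an adjusted p of 0.0529 after median centring, 0.0635 after quantile normalization, 0.0521 with no filter, 0.157 with only the 4 arrays compared, and between 0.0645 and 0.135 on leaving out any array but uninjured muscle 2. The call in transplanted injured muscle was lost on leaving out any array but the 2 of uninjured muscle, with an adjusted p of up to 0.168, and after quantile normalization (0.0577), with no filter (0.0686) or with a larger pseudocount (0.0798). The other Fzd7 probe set (1450043_at) stayed between 1.41 and 7.68 on all 8 arrays and was not tested.

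Fzd4, a receptor for Wnts and for the ligand norrin, lay higher in both muscle groups of mice without a transplant than in the other groups. Probe set 1419301_at measured 41.9 and 46.3 in transplanted injured muscle, 142 and 123 in untransplanted injured muscle, 185 and 83.6 in uninjured muscle, and 43.3 and 25.5 in bone marrow. Untransplanted injured and uninjured muscle overlapped, and so did transplanted injured muscle and bone marrow. Uninjured muscle was 3.44-fold above bone marrow without passing the test (log2 1.78, SE 0.47, adjusted p = 0.0689), and the value was 2.34 (adjusted p = 0.00928) with uninjured muscle array 1 alone and 1.23 (adjusted p = 0.171) with array 2 alone. Transplanted injured muscle lay 2.84-fold below untransplanted injured muscle (log2 -1.50, SE 0.47, unadjusted p = 0.012, adjusted p = 0.32), and the adjusted p was 0.0183 with only these 4 arrays. The dimmer Fzd4 probe set (1449416_at) was under 38.4 on all 8 arrays, at 2.64 and 2.06 in transplanted injured muscle and at 17.5 and 23.3 in untransplanted injured muscle.

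Fzd2, a receptor best known for Wnt5a signalling, gave different pictures on its 3 probe sets. On 1418533_s_at, the one with the highest mean, it measured 32.2 and 21.5 in transplanted injured muscle, 62.2 and 57.8 in untransplanted injured muscle, 32.8 and 50.1 in uninjured muscle, and 14.6 and 16.2 in bone marrow. On 1418532_at it measured 2.68 and 2.01 in transplanted injured muscle, 64.5 and 18.0 in untransplanted injured muscle, 32.2 and 53.4 in uninjured muscle, and 35.7 and 25.8 in bone marrow. The first set put transplanted injured muscle above bone marrow (log2 0.65, SE 0.45, adjusted p = 0.291) and the second put it below (log2 -2.44, SE 0.64, adjusted p = 0.0223). Both groups were under 38.4 on 1418532_at, so no fold is given for that call, and it was lost with a larger pseudocount (log2 -0.51, adjusted p = 0.109) and on leaving out any of its 4 arrays. Both sets, and the untested 1418534_at, were lower on both transplanted than on both untransplanted injured arrays. For 1418532_at that difference was -2.62 on the log2 scale (SE 0.64, unadjusted p = 0.00359, adjusted p = 0.191). Pearson correlations between the 3 sets over the 8 arrays lay between 0.303 and 0.581. On 1418534_at a single array stood out, uninjured muscle 1 with 113, where the other 7 lay between 2.61 and 27.6.

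Fzd5 and Fzd1, further Wnt receptors, had no call in any comparison. Fzd5 measured 43.9 and 42.3 in transplanted injured muscle, 6.68 and 44.3 in untransplanted injured muscle, 12.1 and 91.0 in uninjured muscle, and 20.4 and 35.1 in bone marrow. Its adjusted p lay between 0.556 and 0.957 in the 4 comparisons, and the 95% interval for transplanted minus untransplanted injured muscle ran from -1.13 to 3.23 on the log2 scale. Fzd1 reached 38.4 on 1 array only, uninjured muscle 2 with 44.4, lay between 5.25 and 24.8 on the other 7, and was not tested.

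Among the antagonists, Sfrp1, a secreted Frizzled-related protein, was brightest in untransplanted injured muscle. Probe set 1448395_at measured 42.9 and 25.5 in transplanted injured muscle, 129 and 121 in untransplanted injured muscle, 35.9 and 18.6 in uninjured muscle, and 5.63 and 16.6 in bone marrow. Its 2 untransplanted injured arrays were the brightest of the 8. The rise over uninjured muscle was 2.10 on the log2 scale (SE 0.55, adjusted p = 0.0271), at least 3.04-fold. On 1416594_at the gene measured 11.2 and 26.2 in transplanted injured muscle, 70.4 and 55.7 in untransplanted injured muscle, 3.91 and 4.37 in uninjured muscle, and 3.37 and 5.96 in bone marrow. That rise was 3.03 (SE 0.60, adjusted p = 0.00978), at least 1.57-fold. Leaving out untransplanted injured array 1 ended both calls (adjusted p = 0.126 and 0.0608), and the first was also lost without untransplanted injured array 2 (0.105) or uninjured muscle array 2 (0.0707).

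All 4 probe sets of Sfrp1 were brightest on the 2 untransplanted injured arrays, as the plot of its probe sets shows. The remaining sets were 1438620_x_at, with 92.6 and 110 in untransplanted injured muscle against 51.4 and 8.45 in uninjured muscle (log2 2.0, SE 0.96, adjusted p = 0.153), and 1460187_at, with 38.1 and 51.9 in untransplanted injured muscle against 8.34 and 5.32 in uninjured muscle, which was not tested. Correlations between the 4 sets over the 8 arrays ranged between 0.523 and 0.904. In transplanted injured muscle all 4 sets were lower on both arrays than in untransplanted injured muscle. The log2 difference was -1.79 on 1448395_at (SE 0.55, unadjusted p = 0.0113, adjusted p = 0.308), -2.20 on 1438620_x_at (adjusted p = 0.574) and -1.64 on 1416594_at (adjusted p = 0.42). With only the 4 injured arrays fitted, the adjusted p was 0.017 on 1448395_at and 0.0298 on 1438620_x_at. Above bone marrow, transplanted injured muscle stood by 1.40 on 1448395_at (SE 0.55, adjusted p = 0.0844), with both groups near or under the filter value.

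**Figure D3:**
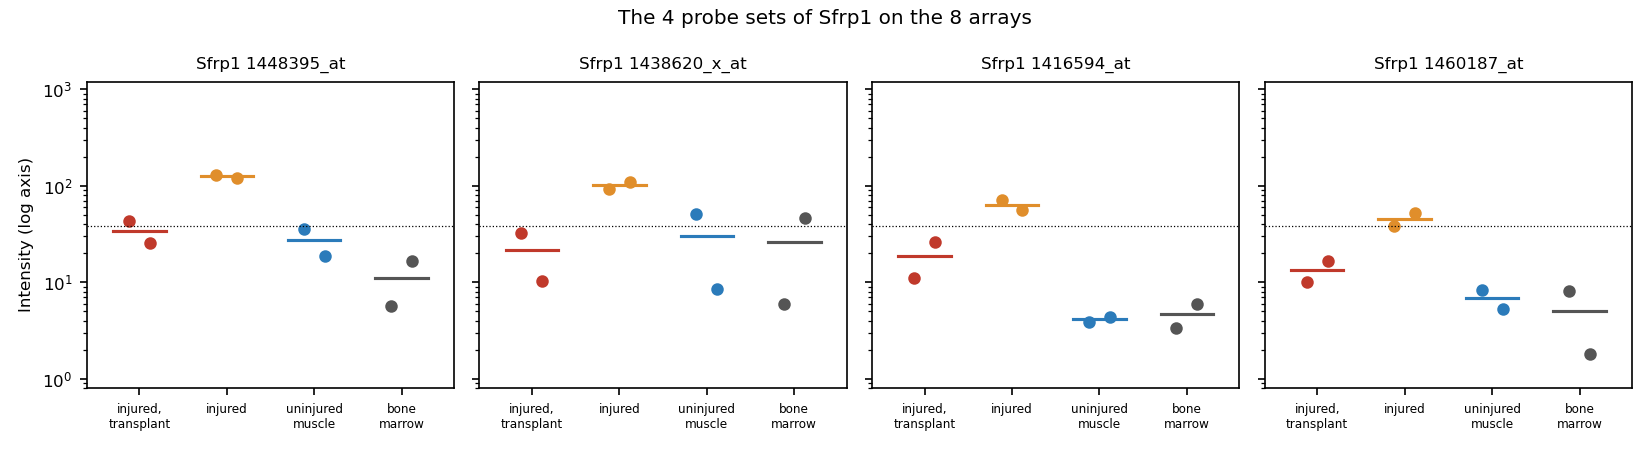
Intensity (log axis) of the 4 Sfrp1 probe sets; each point is 1 array, each bar the mean of 2, and the dotted line is 38.4. On each probe set both untransplanted injured arrays lie above the other 6 arrays, from 129 and 121 on 1448395_at down to 38.1 and 51.9 on 1460187_at.

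Sfrp2, a secreted protein of the same family, had the widest span of group means among the genes' brightest probe sets, 4.83 on the log2 scale. Its single probe set measured 124 and 81.4 in transplanted injured muscle, 498 and 619 in untransplanted injured muscle, 258 and 32.3 in uninjured muscle, and 13.6 and 18.1 in bone marrow. Untransplanted injured muscle was highest on both arrays, the 2 uninjured muscle arrays lay on either side of the transplanted ones, and bone marrow was lowest. No comparison passed the adjusted threshold, and several came close to it. The log2 fold change was 2.52 (SE 0.80, adjusted p = 0.0506) for untransplanted injured over uninjured muscle, 5.74-fold, and 2.41 (SE 0.80, adjusted p = 0.0505) for transplanted injured muscle over bone marrow, at least 2.46-fold. It was -2.42 (SE 0.80, unadjusted p = 0.016, adjusted p = 0.354) for transplanted against untransplanted injured muscle, 5.36-fold lower, and 2.31 (SE 0.80, adjusted p = 0.157) for uninjured muscle over bone marrow.

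The 2 uninjured muscle arrays disagreed on Sfrp2, and each comparison with them depended on which was kept. The change after injury was 3.95 on the log2 scale (adjusted p = 0.00128) against array 2 alone and 1.09 (adjusted p = 0.0674) against array 1 alone. Uninjured muscle over bone marrow stood at 3.73 (adjusted p = 0.000744) with array 1 alone and at 0.88 (adjusted p = 0.281) with array 2 alone. These calls come from dropping the array that disagrees, with the spread taken from the other groups. Transplanted against untransplanted injured muscle, which uses neither of them, had an adjusted p of 0.0182 without uninjured muscle 1, 0.0146 without uninjured muscle 2, and 0.000247 with only its own 4 arrays. Transplanted injured muscle against bone marrow passed on the same terms (0.00116, 0.000827 and 0.00717). The comparisons near the threshold also passed after median centring, with an adjusted p of 0.0461 after injury and 0.0478 for transplanted injured muscle against bone marrow. With no filter they did not pass (0.0633 and 0.0654). Of 9 other settings the change after injury passed in 3, with an adjusted p of up to 0.136. Transplanted injured muscle against bone marrow passed in 5 (up to 0.127), and against untransplanted injured muscle in 1 (up to 0.508).

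Dkk3, a divergent member of the Dickkopf family whose effect on Wnt signalling varies with context, was lower after injury. Probe set 1448669_at measured 5.87 and 12.6 in transplanted injured muscle, 11.6 and 9.96 in untransplanted injured muscle, 111 and 40.4 in uninjured muscle, and 30.9 and 34.1 in bone marrow. All 4 injured arrays were below the 4 arrays without injury. Untransplanted injured muscle fell below uninjured muscle by 2.27 on the log2 scale (SE 0.60, adjusted p = 0.0273), at least 1.68-fold, and the call was lost without uninjured muscle 1 (log2 -1.59, adjusted p = 0.142), without either untransplanted injured array (0.0976 and 0.105), or with only the 4 arrays compared (0.0722). Transplanted injured muscle stood at -1.51 against bone marrow (SE 0.60, adjusted p = 0.0856), with both groups under 38.4. The dimmer probe set, 1417312_at, was under that value on all 8 arrays, between 2.50 and 33.4, with overlapping groups after injury.

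Of the effectors, Axin2, which feeds back on the pathway as part of the beta-catenin destruction complex, was low on all 4 injured arrays. Its brighter probe set (1436845_at) measured 29.0 and 30.1 in transplanted injured muscle, 24.8 and 13.7 in untransplanted injured muscle, 155 and 120.1 in uninjured muscle, and 128 and 153 in bone marrow. Uninjured muscle and bone marrow overlapped. Untransplanted injured muscle fell below uninjured muscle by 2.64 (log2, SE 0.40, adjusted p = 0.00413), at least 3.31-fold. Transplanted injured muscle fell below bone marrow by 2.10 (log2, SE 0.40, adjusted p = 0.00601), at least 3.39-fold. Both calls were kept under all 9 other settings and in all 8 fits that left out an array. Uninjured muscle and bone marrow differed by -0.03 (log2, 95% interval -0.95 to 0.89), and transplanted and untransplanted injured muscle by 0.57 (log2, 95% interval -0.35 to 1.49, adjusted p = 0.875).

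The low Axin2 and Dkk3 values lay on the same arrays as the low 3′ to 5′ ratios of the RNA controls. The Gapdh ratio was 0.882 and 0.868 in transplanted injured muscle, 0.833 and 0.808 in untransplanted injured muscle, 46.9 and 13.6 in uninjured muscle, and 24.4 and 10.7 in bone marrow. Summed intensities of 14 macrophage genes followed the same division, between 100479 and 105698 in transplanted injured muscle and between 107923 and 115860 in untransplanted injured muscle, against 30370 to 52545 in uninjured muscle and 8659 to 10179 in bone marrow. Summed lymphocyte and progenitor markers moved the other way, as Axin2 did, but not every gene of a list followed its sum. The B cell gene Blnk was at 1433 to 1657 on the injured arrays and at 295 to 867 on the arrays without injury. The progenitor gene Runx1 was at 301 to 581 against 5.90 to 166. Of the macrophage genes, Cd163 was at 160 to 553 on the injured arrays and at 1295 and 1530 in uninjured muscle. Mrc1 was at 3476 to 4909 on the injured arrays and at 5495 and 5070 in uninjured muscle. The T cell gene Il7r was at 2131 and 1854 in transplanted injured muscle. It was at 853 on uninjured muscle array 2 and at 1528 on bone marrow array 2. Sums of 16 T cell genes were 2620 to 2832 in transplanted and 1704 to 1772 in untransplanted injured muscle, against 5140 to 9015 in uninjured muscle and 9560 to 9831 in bone marrow. Sums of 13 B cell genes were 2079 to 2104 in transplanted and 2019 to 2281 in untransplanted injured muscle, against 5071 to 8474 in uninjured muscle and 17871 to 21459 in bone marrow. Sums of 11 stem and progenitor genes were 576 to 585 in transplanted and 938 to 1094 in untransplanted injured muscle, against 2078 to 2819 in uninjured muscle and 4576 to 7287 in bone marrow. The part of these cell types in the result was not tested. The other Axin2 probe set (1421341_at) did not follow the first: it measured 4.73 and 19.9 in transplanted injured muscle, 1.00 and 49.1 in untransplanted injured muscle, 3.53 and 2.29 in uninjured muscle, and 12.9 and 11.7 in bone marrow, with a correlation of -0.36 between the sets. It reached 38.4 on 1 array only and was not tested.

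Lef1, the DNA-binding partner of beta-catenin, was under 38.4 on all 8 arrays of its single probe set. It measured 6.91 and 1.27 in transplanted injured muscle, 14.0 and 12.4 in untransplanted injured muscle, 18.4 and 7.5 in uninjured muscle, and 6.76 and 33.7 in bone marrow. The range of the bone marrow arrays overlapped with that of every other group, and no test was made at these intensities.

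Sfrp1, Sfrp2 and Fzd7 varied over the arrays with fibroblast genes, although Sfrp1 was at only 35.9 (1448395_at) on the uninjured muscle array with the highest fibroblast sum. Fzd7 was higher on both transplanted (77.0 and 67.0) than on both untransplanted injured arrays (56.1 and 61.7), where the fibroblast sum was the higher one. Of 21 fibroblast genes bright enough to compare, the median Pearson correlation with Sfrp2 over the 8 arrays (log2 values) was 0.838, against -0.188 over all 7402 named genes compared with it. It was 0.787 for Fzd7 (all genes -0.116) and 0.78 for Sfrp1 (all genes -0.16), but 0.001 for Dkk3 (all genes 0.117) and -0.408 for Axin2 (all genes 0.163). These are descriptions over arrays that share 4 groups, with no test. Marker lists of other cell types were not compared in this way. The likeness is therefore not shown to be particular to fibroblast genes. The 2 uninjured muscle arrays also differed from each other. Array 1 had 258 for Sfrp2, 168 for Fzd7 and 185 for Fzd4 with a fibroblast sum of 52511. Array 2 had 32.3, 81.4 and 83.6 with a sum of 16960. By their brightest probe sets Sfrp1, Dkk3 (111 and 40.4), Lef1 and Axin2 were also higher on array 1. Fzd1, Fzd2 (32.8 and 50.1) and Fzd5 (12.1 and 91.0) were higher on array 2. The split was not particular to fibroblast genes: the Gapdh ratio (46.9 and 13.6), endothelial and T cell sums were higher on array 1 too. B cell and macrophage sums were higher on array 2. All 22 fibroblast genes exceeded 38.4 on both uninjured muscle arrays, from 53.3 for Pdgfra, a growth factor receptor, on array 2 to 9385 for Col1a2, a collagen chain, on array 1. Col1a2 was at 56.9 and 161 in bone marrow. The part of such cells in the antagonist and receptor differences was not tested.

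**Figure D4:**
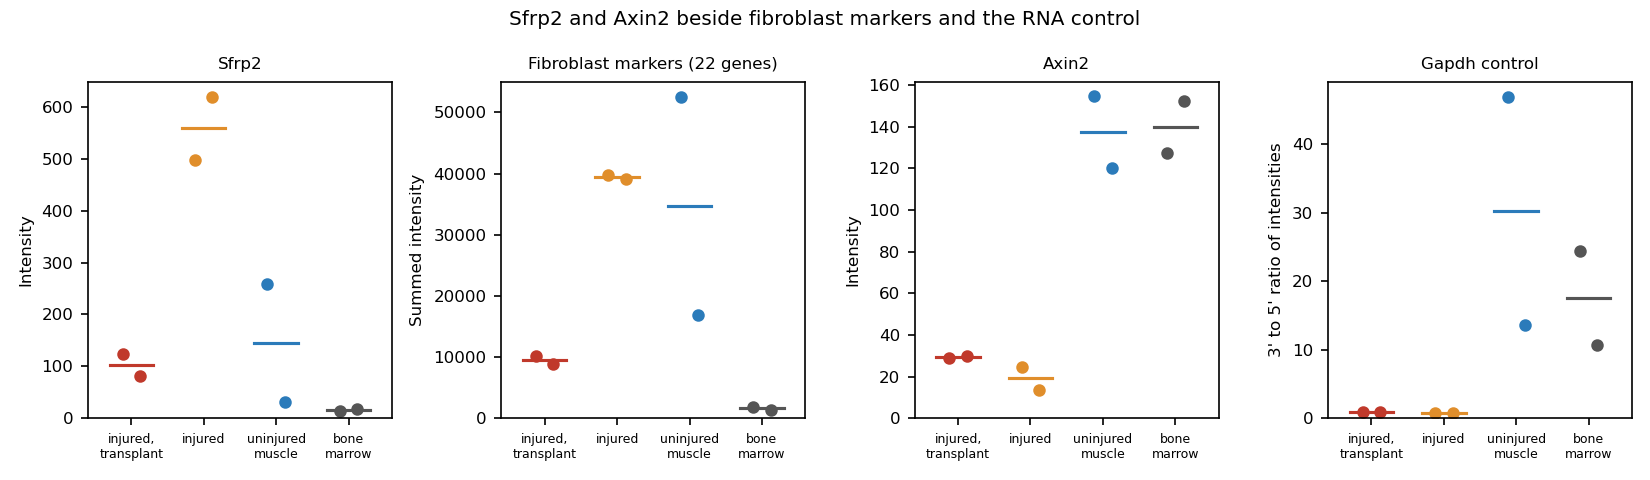
Sfrp2 intensity, summed intensity of 22 fibroblast genes, Axin2 intensity and the 3′ to 5′ ratio of the Gapdh control on the 8 arrays (linear axes); each point is 1 array and each bar the mean of 2. Sfrp2 and the fibroblast sum are both lowest in bone marrow and lower in transplanted than in untransplanted injured muscle, while Axin2 and the Gapdh ratio are both high on the 4 arrays without injury.

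The genes most alike to a member were named for the 5 members whose group means span at least 2 on the log2 scale, by Pearson correlation over the 8 arrays. For Sfrp2 they were Tpst1 (0.993), a protein tyrosine sulfotransferase, Aspn (0.976), a matrix proteoglycan, and Cyp1b1 (0.974), a cytochrome P450 enzyme. Aspn measured 41.9 and 41.3 in transplanted injured muscle, 226 and 242 in untransplanted injured muscle, 221 and 20.6 in uninjured muscle, and 2.18 and 6.84 in bone marrow, so it split the uninjured muscle arrays as Sfrp2 did. For Sfrp1 they were Cx3cr1 (0.976), a chemokine receptor of monocytes and macrophages, Ltbp2 (0.970), a matrix protein, and Tnc (0.955), the matrix protein tenascin C. Tnc measured 70.2 and 94.2 in transplanted injured muscle, 1006 and 949 in untransplanted injured muscle, 118 and 24.0 in uninjured muscle, and 13.8 and 15.6 in bone marrow. For Fzd7 they were Cav2 (0.967), a caveolin, Acvr2a (0.956), an activin receptor, and Rtn4 (0.954), a reticulon.

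Nearest to Axin2 were Dhx9 (0.994), an RNA helicase, Ube2r2 (0.993), a ubiquitin-conjugating enzyme, and Cnot2 (0.991), a subunit of the deadenylase complex. Cnot2 measured 315 and 328 in transplanted injured muscle, 328 and 227 in untransplanted injured muscle, 1572 and 1292 in uninjured muscle, and 1614 and 1474 in bone marrow. Of the named genes compared, 549 (7.42%) had a correlation above 0.9 with Axin2, against 36 (0.486%) for Sfrp2, 26 (0.351%) for Sfrp1, 44 (0.594%) for Fzd7 and 200 (2.7%) for Dkk3. The Axin2 pattern was thus the most widely shared of the 5. Nearest to Dkk3 were Aebp2 (0.982), a zinc finger protein, Utrn (0.980), which encodes utrophin of the muscle membrane, and Tmem41b (0.978), a membrane protein.

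The rest of the pathway was read from a list of 112 other Wnt genes, of which 96 had a probe set and 60 were tested. In uninjured muscle against bone marrow 1 was higher and 1 lower, 3.33% of the 60, where 7.25% of all 9506 tested named genes were called, 5.85% higher and 1.4% lower. Tcf7l1, a relative of Lef1 that mostly represses, was higher at 262 and 143 in uninjured muscle against 53.6 and 32.7 in bone marrow (log2 2.11, SE 0.45, adjusted p = 0.0309), and it missed the threshold in each of the fits that left out an array other than uninjured muscle 2. Ccnd1, the cyclin that drives entry into the cell cycle, was lower at 869 and 740.0 in uninjured muscle against 2560 and 1649 in bone marrow (log2 -1.35, SE 0.28, adjusted p = 0.0277), a call lost in 5 of 8 such fits. None of the 7 tested ligand and secretion genes and none of the 4 tested antagonists passed.

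After injury 3 of the 60 rose and 10 fell in untransplanted injured muscle, 21.7%, where 23.9% of all tested named genes were called, 8.77% higher and 15.1% lower. The list's median log2 fold change was -0.776, against -0.25 for all named genes. Of 9 tested genes that are widely used as Wnt targets, Id2 and Cd44 rose and Myc fell, with Id2 (an inhibitor of basic helix-loop-helix factors) at 1104 and 836 in untransplanted injured muscle against 205 and 81.3 in uninjured muscle (log2 2.85, SE 0.44, adjusted p = 0.00445). Cd44, the hyaluronan receptor, rose by 1.08 (SE 0.32, adjusted p = 0.039), and the kinase Csnk1e by 2.17 (SE 0.46, adjusted p = 0.0133). Of the 7 tested planar polarity genes 4 fell, with the cadherin Celsr1 at 2.68 and 1.29 in untransplanted injured muscle against 82.2 and 64.5 in uninjured muscle (log2 -3.69, SE 0.50, adjusted p = 0.00278), at least 1.81-fold. Its log2 value depends on the pseudocount and ran from -4.67 to -1.05 over the other settings. Celsr2 (-2.14), Celsr3 (-2.19) and Prickle1 (-2.48) were the others. The co-receptor Lrp6 fell, at 144 and 173 in untransplanted injured muscle against 416 and 375 in uninjured muscle (log2 -1.30, SE 0.31, adjusted p = 0.0191), as did the receptor Fzd6 (-2.58, adjusted p = 0.0351). The nuclear factors Tcf7l1 (-2.64), Tle4 (-1.95) and Bcl9l (-2.18) also fell, and the growth regulator Myc fell by 1.31. For 5 of the 13 called genes (Celsr1, Celsr2, Celsr3, Prickle1 and Tcf7l1) all injured arrays were under 38.4, so they entered the test only through arrays without injury, and their folds are bounds of at least 1.41 to 4.68. The filter favoured a fall in these 5, and their number carries no weight of its own. With no filter, where every probe set is tested, the 5 falls still passed. Fits that leave out an array kept the filter set on all 8 arrays. Celsr1, Id2 and Tcf7l1 kept their call in all 8 fits that left out an array, and the other 10 calls were lost in 2 to 7 of them. The 2 groups differ in the RNA controls as described for Axin2, and the part of the controls in these calls was not tested.

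Transplanted injured muscle set against untransplanted injured muscle gave 0 calls in limma among the 60, where 0.316% of all tested named genes were called, 0.0421% higher and 0.274% lower. Of the 60, 8 had an unadjusted p under 0.05, as had 928 of all 9506 tested named genes. Against bone marrow, transplanted injured muscle had 2 of the 60 higher and 17 lower, 31.7%, where 31.5% of all tested named genes were called, 12% higher and 19.5% lower. The share called in the list was thus near that of all named genes. The RNA controls separate these 2 groups too, and their part in these calls was not tested. The higher genes were again Id2 (log2 2.92, adjusted p = 0.00222) and Cd44 (1.71, adjusted p = 0.00526). Nuclear factors and co-repressors, 12 of the 60 tested genes, made up 6 of the 17. Cxxc5 was at 36.5 and 42.5 in transplanted injured muscle against 344 and 723 in bone marrow (log2 -3.53, SE 0.68, adjusted p = 0.00625), 11.6-fold lower, with Tle3 (-2.15), Bcl9l (-2.79) and Tcf7l2 (-2.09) next. The receptors Fzd3 (-2.42), Fzd6 (-2.43) and Lrp6 (-1.0) fell, as did the R-spondin receptor Lgr5 (-2.29) and the ligand Wnt10a (-2.75). Celsr1 fell, at 1.62 and 0.907 in transplanted injured muscle against 107 and 91.6 in bone marrow (log2 -4.28, SE 0.50, adjusted p = 0.000709), at least 2.43-fold, with log2 values between -5.45 and -1.32 over the other settings. In cytoplasmic signalling Csnk1d (-1.29), Frat2 (-2.82) and Dvl1 (-1.65) fell, and Myc (-1.80) and Prickle1 (-2.41) completed the genes named, with Tle4 and Bcl9 as the remaining nuclear ones. In 8 of the 19 called genes both transplanted arrays were under 38.4, so that 7 have only bounds of at least 1.24-fold to 2.83-fold, and Prickle1, under that value in both groups, has no fold. For 7 of the 19 (Celsr1, Fzd3, Lgr5, Wnt10a, Tcf7l2, Bcl9 and Prickle1) all injured arrays were under 38.4. These genes entered the test only through arrays without injury, so the filter favoured a fall and their number carries no weight of its own. With no filter the 7 falls still passed. Celsr1, Csnk1d, Cxxc5, Id2 and Tle3 kept their call in all 8 fits that left out an array, and the other 14 were lost in 1 to 6 of them.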

How the data were processed

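RNA of CD45+/Sca1+ cells was measured on 8 arrays in 4 groups of 2, grouped and numbered by the sample titles. The deposited values are intensities on a linear scale, 1 per probe set, and were already scaled so that each array's trimmed mean is about 250.1. The submitters' processing notes name the software GCOS, and how probes were summarised is not given in the sources used here. Probe sets were named with the platform annotation given, and 20380 of 22626 had 1 gene. The log2 scale was log2(value + 4), after raising values below 1 to 1. A probe set was tested if it reached 38.4, the 40th percentile, on 2 or more of 8 arrays, which 16289 did. Groups were compared in limma 3.58.1 (R 4.3.3), with 1 mean per group on all 8 arrays, an intensity trend, 4 residual and a median of 4.07 prior degrees of freedom, two-sided, with Benjamini-Hochberg adjustment over all tested probe sets and a threshold of 0.05. The script was tested on simulated data. The number of arrays limits the precision, with a median SE of 0.45 for a log2 fold change. Other work ran in Python 3.11.15.

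The text names all 10 members with every probe set, the other Wnt pathway genes that passed (values for at most 4 per role and comparison, by smallest p), and the 3 named genes most alike in pattern to each member that was tested and spans at least 2 on the log2 scale. A gene's probe set with the highest mean stands for it where only 1 is used. Members and lists were chosen with earlier results of these data known. Alternatives were the scaling, the pseudocount, the filter, the variance trend, a fit on only the 4 arrays compared, the replicate number as a block, and each array left out.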

Additional observations from a re-analysis of the deposited data

How the results depend on the processing

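Over 9 other settings the member probe sets gave 364 values, of which 341 kept direction and side of the threshold, 9 lost a call, 13 gained one and 1 changed sign. With each array left out in turn there were 352 values, of which 304 kept both, 24 lost a call, 8 gained one and 16 changed sign. Counts of member calls in uninjured muscle against bone marrow were 0, in place of 1, after quantile normalization, after median centring, with no filter, with a filter at the 60th percentile (which leaves Fzd7 untested) and with only the 4 arrays compared. After injury the stricter filter left 2 member calls in place of 4. Transplanted against untransplanted injured muscle had 4 in place of 0 with only its 4 arrays, and transplanted injured muscle against bone marrow had 1 in place of 3 with the median of all values as pseudocount. Over all probe sets, calls for transplanted against untransplanted injured muscle were 41, but 24 after median centring, 9 after quantile normalization, 86 with the larger pseudocount, 1125 with only the 4 arrays, and 15 with the replicate number as a block. With only the 4 arrays compared they were 288 in place of 991 for uninjured muscle against bone marrow, and 2071 in place of 4235 after injury. The cause was not tested. Leaving out arrays gave between 1 and 4 member calls (2592 to 7205 over all probe sets) for transplanted injured muscle against bone marrow, 0 to 1 (0 to 268) for transplanted against untransplanted injured muscle, 0 to 3 (511 to 3121) for uninjured muscle against bone marrow and 1 to 4 (1323 to 6067) after injury. Sfrp1 1438620_x_at was at -0.056 in place of 0.019 in transplanted injured muscle against bone marrow with the larger pseudocount. Uncalled log2 values whose sign changed on leaving out an array ran from -1.15 to 1.19 for that set there, and from -0.58 to 0.17 for Dkk3 and -0.038 to 2.14 for Fzd5 in transplanted against untransplanted injured muscle. In uninjured muscle against bone marrow they ran from -0.21 to 0.14 for Axin2, -0.94 to 1.62 for Fzd5, -0.29 to 0.14 for Sfrp1 1416594_at and -0.95 to 1.39 for Sfrp1 1438620_x_at. After injury they ran from -1.05 to 0.59 for Fzd2 1418532_at, -0.47 to 0.64 for Fzd4 and -2.06 to 0.49 for Fzd5. Median centring moved the median of all log2 fold changes to -0.208 from -0.0313 in uninjured muscle against bone marrow, to 0.00452 from -0.142 after injury, to 0.139 from 0.00479 in transplanted against untransplanted injured muscle and to -0.081 from -0.185 in transplanted injured muscle against bone marrow. The share of calls that were higher was 69.4% after centring against 79.4% in uninjured muscle against bone marrow, 56.6% against 46.6% after injury, and 22.2% after quantile normalization against 9.76% in transplanted against untransplanted injured muscle. Replicate numbers are shared by the groups. Deviations of same-numbered arrays correlated at 0.313 for uninjured muscle with bone marrow, and between -0.0317 and 0.0031 for the other pairs of groups. In uninjured muscle and in bone marrow array 1 also had the higher Gapdh ratio, 46.9 against 13.6 and 24.4 against 10.7. What these arrays share beyond a number was not tested. With the replicate block Sfrp2 passed after injury (adjusted p = 0.0442) and in transplanted injured muscle against bone marrow (adjusted p = 0.0428). Of calls among the other Wnt genes, 36 of 295 values were lost under other settings and 96 of 272 on leaving out an array. Intensities near the filter value and 2 arrays a group limit all member results.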
